A study of Mus musculus with 6 samples.

Results

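The genes described here encode the receptors for the colony-stimulating factors, for IL-3 and for cytokines of the IL-6 family. They were taken by gene symbol: Csf1r, Csf2ra, Csf2rb, Csf2rb2, Csf3r, Il3ra, Il6ra, Il6st, Lifr and Osmr. All 10 had a row among the 15443 gene symbols measured, and 9 had a mean of at least 5 normalized counts and were tested. Their RNA was measured in bone marrow cells of WT C57BL/6J mice, an inbred laboratory strain, cultured for 3 days with FLT3LG at 50 ng/ml. FLT3LG is the growth factor that drives dendritic cell (DC) development from marrow progenitors, and every culture, controls included, received it. The control group (replicates 1, 2 and 4) had no further addition, and the midkine group (replicates 3, 4 and 5) also received recombinant human midkine, a heparin-binding growth factor, at 10 ng/ml throughout. The labels give neither the age and sex of the mice nor the origin of the replicates (distinct animals, distinct dishes or one preparation). The p-values below therefore reflect the variation among 6 libraries and may be technical in part or in whole. The marrow was cultured unsorted, so a lower value can mean fewer cells that make a transcript or less of it per cell, and these cannot be told apart in bulk RNA.

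Blood cell cytokine receptors are mostly built from a chain that binds one cytokine and a chain that is shared and signals. The GM-CSF and IL-3 receptors have their own alpha chains (Csf2ra, Il3ra) and share the common beta chain Csf2rb, while mice carry an additional beta chain, Csf2rb2, that serves IL-3 alone. Il6st encodes gp130, the signalling chain used by IL-6 (with Il6ra), by LIF (with Lifr) and by oncostatin M (with Osmr). These receptors have no kinase of their own and act through JAK kinases and STAT factors. Csf1r, the receptor for CSF-1 and IL-34, is a receptor tyrosine kinase of the same class as the FLT3LG receptor. In marrow, CSF-1 signalling is known for the survival of monocytes and macrophages, G-CSF signalling through Csf3r for neutrophils, and GM-CSF signalling for granulocytes, macrophages and DCs.

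The chains that showed the widest gap between the groups were Il6st and Lifr, and both were lower with midkine. Il6st lies on chromosome 13, 112464070 to 112510086 on the plus strand of GRCm38, and Lifr on chromosome 15, 7090614 to 7197489 on the plus strand, per GENCODE release M21. Because these genes were lower together, the 250 bases before their annotated starts are shown, from RefSeq on GRCm38.p6, 5′ to 3′, with every match to a GC box in capitals. Il6st has 1 such window and Lifr has 2, for separate starts. Both Lifr windows lie inside the gene as placed by GENCODE, and the GENCODE start at 7090614 has no window here. For Lifr, first and second give only the order of these 2 windows.
Il6st, chr13:112463820-112464069, plus strand: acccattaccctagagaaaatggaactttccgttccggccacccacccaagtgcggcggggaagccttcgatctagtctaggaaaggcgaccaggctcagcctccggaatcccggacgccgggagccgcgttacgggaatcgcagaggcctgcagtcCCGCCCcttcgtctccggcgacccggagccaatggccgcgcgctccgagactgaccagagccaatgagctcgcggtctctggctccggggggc
Lifr, first start, chr15:7129322-7129571, plus strand: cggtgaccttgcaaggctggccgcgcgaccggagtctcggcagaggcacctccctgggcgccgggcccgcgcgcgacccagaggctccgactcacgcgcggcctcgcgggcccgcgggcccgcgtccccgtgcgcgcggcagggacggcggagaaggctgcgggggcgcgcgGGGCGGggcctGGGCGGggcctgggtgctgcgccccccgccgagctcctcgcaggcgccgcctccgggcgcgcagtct
Lifr, second start, chr15:7140292-7140541, plus strand: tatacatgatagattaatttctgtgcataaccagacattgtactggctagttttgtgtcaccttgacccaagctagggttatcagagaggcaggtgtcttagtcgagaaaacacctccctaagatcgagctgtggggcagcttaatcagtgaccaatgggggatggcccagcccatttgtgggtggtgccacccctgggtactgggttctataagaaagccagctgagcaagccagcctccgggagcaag
The motifs searched on both strands were a GC box (GGGCGG), a pair of STAT half-sites (TTCNNNGAA), a PU.1 site (GAGGAAGT) and a C/EBP site (TTGCNNAA). The Il6st window held 1 GC box, 93 bases before the start, in the orientation CCGCCC, and the first Lifr window held 2, at 78 and 67 bases before the start. GC boxes were found in 32.7% of 32851 windows of the same length. None of the other 3 motifs was found in these windows, where STAT half-sites occur in 7.02%, PU.1 sites in 2.44% and C/EBP sites in 9.56% of all windows, which says only that these letters are not there. The first Lifr window was rich in G and C (82.4%), the Il6st window less so (66.0%) and the second Lifr window least (50.8%), against a median of 52.4% over all windows. Of the 10 members, 8 had a RefSeq window. Among the others with a window, Csf2rb2 had a STAT half-site pair 15 bases before its start (TTCTGAGAA) and Il3ra a C/EBP match 134 bases before it (TTGCTCAA). GC boxes were also present in the windows of Il3ra (5), Osmr (2) and Csf2ra (1), so they are not particular to Il6st and Lifr. Annotated exons of the gene itself cover 220 of the 250 bases of the Il3ra window and 250 of those of Osmr. Matches in these 2 windows can therefore lie in transcribed sequence. The libraries read transcripts near their 3′ ends, so they do not tell which start was used.

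Recovered reads per library ranged from 5985684 to 7233960. Midkine 5 stood apart from the other 5 libraries, with Pearson correlations across genes of 0.921 to 0.941 with them. Only 0.377% of its reads came from mitochondrial ribosomal RNA, with a Wilson 95% interval of 0.372 to 0.381%, and the other libraries had 4.12 to 6.16%. Results that rest on it are therefore also given without it. limma, on 6 libraries, called 0 of 13543 genes at a Benjamini-Hochberg adjusted p under 0.05 (0% higher, 0% lower), while 1404 higher and 1259 lower genes had an unadjusted p under 0.05, edgeR on whole reads called 10 genes and DESeq2 684. Of the marker lists for cell types, the monocyte and macrophage list summed to 45099 to 46285 normalized counts in controls and 59333 to 99680 in midkine libraries (8 of 15 genes higher and 2 lower without overlap, where 15.5% of all tested genes were higher and 15.3% lower in this way, as for the lists that follow). The neutrophil list summed to 127633 to 142535 and 182146 to 195962 (9 of 15 higher, 0 lower). The conventional DC list summed to 14996 to 17158 and 17415 to 18238, with 8 of 14 genes lower and 1 higher. Among the lower genes was the DC factor Zbtb46 at 139 to 171 and 65.4 to 86.2. The higher gene was Sirpa at 1847 to 2296 and 3434 to 9965. The basophil, mast cell and eosinophil list summed to 1292 to 1540 and 2155 to 3225 (6 of 11 measured genes higher, 0 lower). The plasmacytoid DC list summed to 6315 to 7278 and 5530 to 5747 (1 of 10 higher, 3 lower). Its higher gene, Klk1, was at 0 to 2.96 and 6.77 to 10.9, under the filter and not tested. The stroma and endothelium list summed to 1380 to 1695 and 918 to 1661 (0 of 11 measured genes higher, 3 lower). Among its lower genes, Pdgfra was also under the filter and not tested. The B cell list summed to 2954 to 3911 in controls and to 5497, 5207 and 3287 in midkine 3, 4 and 5. Of its 9 measured genes, 2 were higher, 0 lower and 7 overlapped. Without midkine 5 limma called 9 of its 9 tested genes higher, where it called 9.86% of 13547 genes higher. The megakaryocyte and platelet list summed to 8405 to 9394 in controls and 10845 to 15230 in midkine libraries. Only 2 of its 9 genes were higher, 0 lower and 7 overlapped. Its highest gene, Pf4, was at 2793 to 3626 and 4179 to 8264. The stem and progenitor list summed to 1990 to 2459 and 1649 to 1912 (0 of 9 measured genes higher, 2 lower, 7 overlapping). The T and NK cell list summed to 113 to 143 and 80.8 to 193, and all 6 measured genes overlapped. No list gene with a row was at 0 in all 6 libraries. The part of these cell types in the results below was not tested.

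The receptor chains differed widely in level. Since this 3′ method yields a single fragment per transcript, normalized counts were compared between genes without division by length. In control libraries Csf1r was highest at 3815 ± 338 normalized counts (mean ± SD over the 3 libraries of a group, as in all such values below), followed by Csf2rb, Il6st and Il6ra, and none of these neighbours overlapped in range. Csf2rb2 and Lifr came next with overlapping ranges, then Csf2ra and Csf3r, also overlapping, then Il3ra. Osmr was last. With midkine the order changed at Lifr, which moved from the sixth place to the eighth, where its range overlapped that of Il3ra. Il6st and Il6ra, which were apart in controls, overlapped with midkine.

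**Figure D1:**
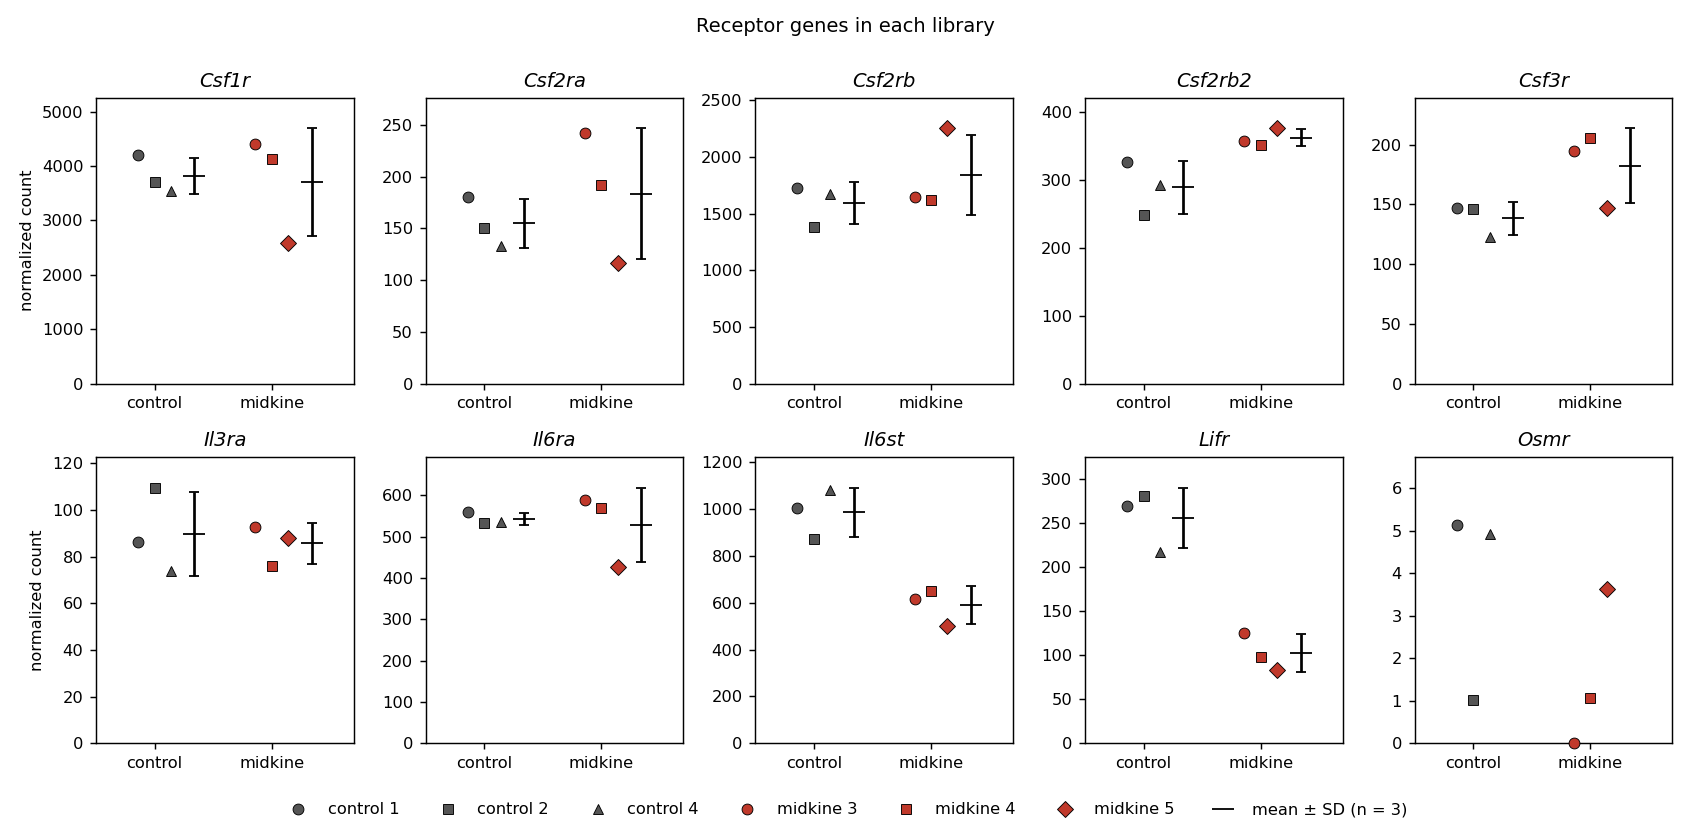
Normalized counts of the 10 receptor genes (vertical axes, each from 0) in the 3 control libraries (grey) and the 3 midkine libraries (red), with the mean ± SD beside them except for Osmr, which is near 0. The Lifr and Il6st points of the midkine libraries all lie below the controls (Lifr 83.5 to 126 against 217 to 281), and midkine 5 (diamond) is the lowest midkine library for Csf1r, Csf2ra, Csf3r, Il6ra, Il6st and Lifr.

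Lifr, which encodes the receptor chain for LIF, was the member with the largest difference. Control replicates 1, 2 and 4 had 270, 281 and 217 normalized counts, and midkine replicates 3, 4 and 5 had 126, 98.2 and 83.5. All midkine libraries lay below all controls. The nearest pair, midkine 3 with 130 reads (exact Poisson 95% interval 109 to 154) and control 4 with 220 (192 to 251), did not overlap in counting error either. The group values were 256 ± 34.3 and 102 ± 21.4, with a log2 fold change of −1.32 ± 0.205 (SE). With all 6 libraries the adjusted p was 0.0757 in limma (unadjusted 0.000171), so Lifr missed the threshold. Only 1.65% of the 13543 tested genes had a lower log2 fold change. Without midkine 5, Lifr fell by 1.19 on the log2 scale with an adjusted p of 6.21e-05 in limma. DESeq2 on whole reads called Lifr lower with all 6 libraries (adjusted p = 5.50e-05), and edgeR did not (0.0741).

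Il6st, which encodes gp130, showed the same direction at a higher level. The controls had 1003, 873 and 1080 normalized counts and the midkine libraries 618, 651 and 499. Every midkine library lay below every control, with a gap from 651 to 873 between the groups. The means were 985 ± 104 and 589 ± 79.9, with a log2 fold change of −0.74 ± 0.164 (SE). The limma adjusted p was 0.0890 with all 6 libraries (unadjusted 0.00178) and 0.000670 without midkine 5, where Il6st fell by 0.63 on the log2 scale. DESeq2 called it lower with all 6 libraries (adjusted p = 0.00922), and edgeR did not (0.0910). Reads behind these values numbered 550 to 1095 per library. Transcripts of Lifr and Il6st were thus lower in the same libraries in which 8 of 14 conventional DC markers were lower without overlap and 1 higher. Of all tested genes, 15.3% were lower and 15.5% higher in this way. The median difference of the 14 DC markers from the control mean was −0.44, −0.52 and −0.68 on the log2 scale in midkine 3, 4 and 5. For Lifr it was −1.01, −1.36 and −1.60, and for Il6st −0.67, −0.59 and −0.97. The stroma and endothelium markers, which also moved, had a median of −1.21, −0.80 and 0.22 in these libraries. In midkine 5, Col1a2, Sparc and Pdgfra (3.63 normalized counts, under the filter) were below every control. Pecam1, Col3a1 and Pdgfrb were above every control in that library. These genes were named after their values were seen. The part of either list in the values of Lifr and Il6st was not tested.

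Il6ra, the ligand-binding partner of gp130 for IL-6, was not lower in every midkine library. It had 560, 533 and 537 normalized counts in controls and 590, 570 and 426 with midkine, so that 2 midkine libraries lay above the controls and midkine 5 below them. The log2 fold change was −0.05 ± 0.168 (SE, limma adjusted p = 0.871), and 0.09 ± 0.103 without midkine 5 (0.573). Within each library, the ratio of Il6st to Il6ra does not depend on the scaling between libraries. It was 1.79, 1.64 and 2.01 in controls and 1.05, 1.14 and 1.17 with midkine. The ratios did not overlap, and their mean on the log2 scale was lower by a difference of −0.69 (exact two-sided permutation p = 0.1, the smallest that 3 against 3 can give, and 0.25 after Benjamini-Hochberg adjustment over 5 ratios). Midkine 5, which was the lowest of the 6 libraries for both genes, had a ratio of 1.17, near those of midkine 3 and 4.

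Osmr, the partner of gp130 for oncostatin M, was barely detected. It had 5, 1 and 5 reads in controls and 0, 1 and 4 reads with midkine. A count of 0 in midkine 3 allows up to 2.90 normalized counts at a floor of 3 reads, and this covers counting error only. The gene fell under the filter, was not tested, and gave no difference that could be read at this depth. Its ratio to Lifr was not computed because of the count of 0.

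**Figure D2:**
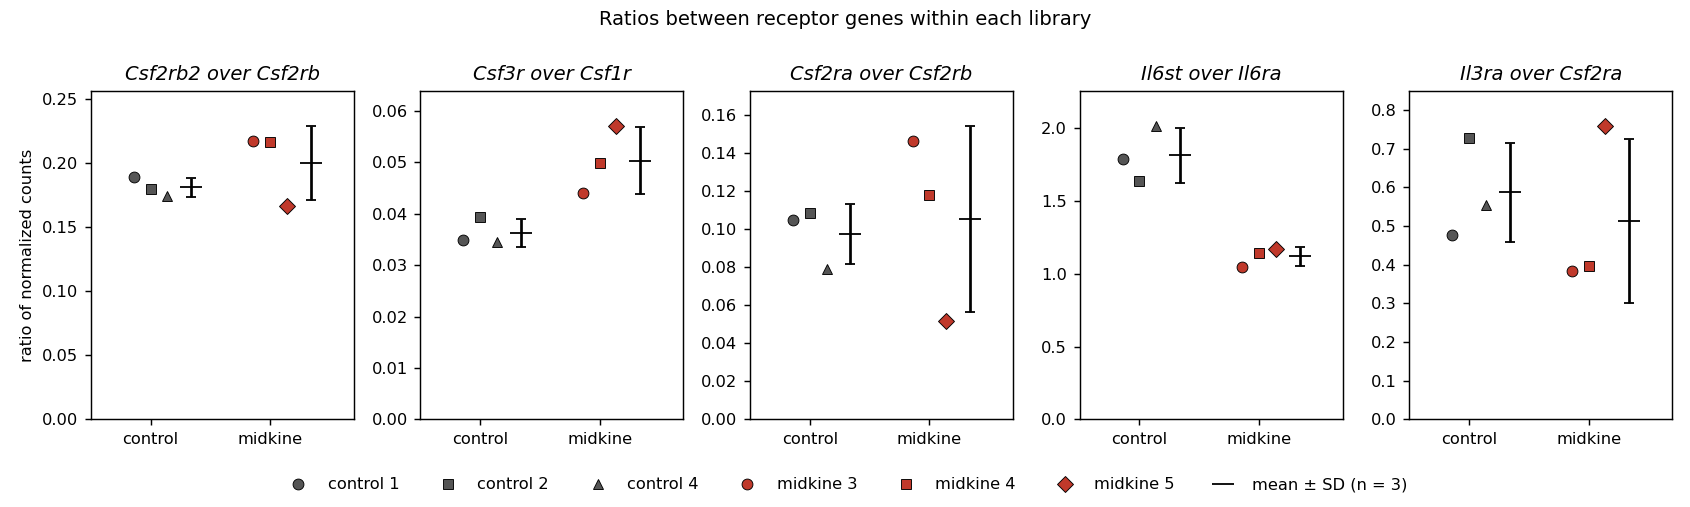
Ratios of normalized counts between pairs of receptor genes (vertical axes, each from 0) within each control (grey) and midkine (red) library, with mean ± SD. The Il6st over Il6ra ratio lies at 1.64 to 2.01 in controls and 1.05 to 1.17 with midkine, the Csf3r over Csf1r ratio is higher in all midkine libraries, and the other 3 ratios overlap.

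Among the colony-stimulating factor receptors, Csf1r was the most abundant, and its midkine libraries lay on both sides of the controls. Controls had 4193, 3710 and 3542 normalized counts, and midkine libraries 4408, 4130 and 2579. Midkine 3 was the highest and midkine 5 the lowest of all libraries. The log2 fold change was −0.08 ± 0.219 (SE, limma adjusted p = 0.858) and turned to 0.17 ± 0.103 without midkine 5 (0.291). The summed monocyte and macrophage markers given above were higher in every midkine library and highest in midkine 5, where Csf1r was lowest. Exons of Csf1r share 873 bases with those of Hmgxb3 on the opposite strand. Hmgxb3 had 96.4 to 110 normalized counts in controls and 66.7, 85.5 and 215 in midkine 3, 4 and 5, and without a stated strand setting the reads of both genes cannot be told apart there.

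Csf3r, the G-CSF receptor of neutrophils and their precursors, was higher with midkine by a narrow margin. Control values were 147, 146 and 122 normalized counts, and midkine values were 194, 206 and 147. The groups did not overlap, but midkine 5 (147.04) lay next to control 1 (146.67), well within counting error at 162 and 143 reads. The log2 fold change was 0.39 ± 0.190 (SE) with a limma adjusted p of 0.301. Without midkine 5 Csf3r rose by 0.53 ± 0.142 (adjusted p = 0.0141). The ratio of Csf3r to Csf1r was 0.0345 to 0.0394 in controls and 0.0441, 0.0498 and 0.0570 in midkine 3, 4 and 5, without overlap (difference of log2 ratios 0.46, exact permutation p = 0.1, adjusted 0.25). The neutrophil marker genes had a median difference of 0.56, 0.34 and 0.38 on the log2 scale in midkine 3, 4 and 5. Of these 15 genes, 9 were higher without overlap (15.5% of all tested genes), 0 lower, and 6 overlapped. Elane (168 normalized counts) and Cxcr2 (154) were below every control in midkine 5.

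The GM-CSF and IL-3 receptors comprise Csf2ra, Il3ra and both beta chains. Csf2ra, the alpha chain for GM-CSF, had 181, 150 and 133 normalized counts in controls and 242, 192 and 116 with midkine. Midkine 3 and 4 lay above all controls and midkine 5 below them. The log2 fold change of Csf2ra was 0.19 ± 0.275 (SE, limma adjusted p = 0.711) with all libraries, −0.04 without midkine 3, and 0.49 ± 0.155 without midkine 5, where the gene passed as higher (adjusted p = 0.0359). Il3ra, the alpha chain for IL-3, is low at 72 to 107 reads per library. It had 86.2, 109 and 74.0 normalized counts in controls and 92.8, 76.0 and 88.0 with midkine, and the midkine values all lay within the range of the controls. Its log2 fold change was −0.06 ± 0.207 (SE, adjusted p = 0.895). The ratio of Il3ra to Csf2ra overlapped between the groups (exact permutation p = 0.6).

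Csf2rb, the beta chain common to GM-CSF, IL-3 and IL-5, was higher in midkine 5 alone. Controls had 1724, 1382 and 1679 normalized counts, midkine 3 and 4 had 1648 and 1626, and midkine 5 had 2254. The log2 fold change was 0.20 ± 0.180 (SE, limma adjusted p = 0.549), and 0.04 ± 0.108 without that library (0.821). Csf2rb2, the beta chain for IL-3 alone, had 326, 249 and 293 in controls and 358, 352 and 376 with midkine, without overlap. Its log2 fold change was 0.33 ± 0.158 (SE, adjusted p = 0.291), and 0.30 ± 0.128 without midkine 5 (0.111), so it did not pass in either case. The ratio of Csf2rb2 to Csf2rb was 0.175 to 0.189 in controls, 0.217 and 0.216 in midkine 3 and 4, and 0.167 in midkine 5, with overlap (exact permutation p = 0.4). The genes lie on opposite strands of chromosome 15, Csf2rb2 at 78282507 to 78305721 (minus) and Csf2rb at 78325752 to 78353847 (plus). Their longest transcripts in GENCODE were 85.8% identical over the alignment, and their last 300 bases, near which these libraries read, were 70.3% identical. The longest run of identical bases between the last 300 bases of one and the whole of the other was 24. How reads that fit both genes were counted is not given in the sources used here, so their separate values are uncertain to that extent.

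Over the 9 tested members, 0 were called by limma with all 6 libraries. Control and midkine ranges were separate for 2 higher members (Csf2rb2, Csf3r) and 2 lower members (Il6st, Lifr), where 15.5% of all tested genes were higher and 15.3% lower in this way. At an unadjusted p under 0.05, 0 members were higher and 2 lower, against 10.4% and 9.3% of all tested genes. Without midkine 5, limma called Csf2ra and Csf3r higher and Il6st and Lifr lower, where it called 9.86% of 13547 genes higher and 8.53% lower. edgeR on the same 5 libraries called the same 4 members in the same directions (10.5% and 7.88% of genes). With all 6 libraries, edgeR called 0 members (0.0443% and 0.0295% of genes) and DESeq2 called Il6st and Lifr lower and 0 members higher (1.95% lower and 3.97% higher of the genes with an adjusted p). The median log2 fold change of the members was −0.05, beside −0.00404 over all tested genes.

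**Figure D3:**
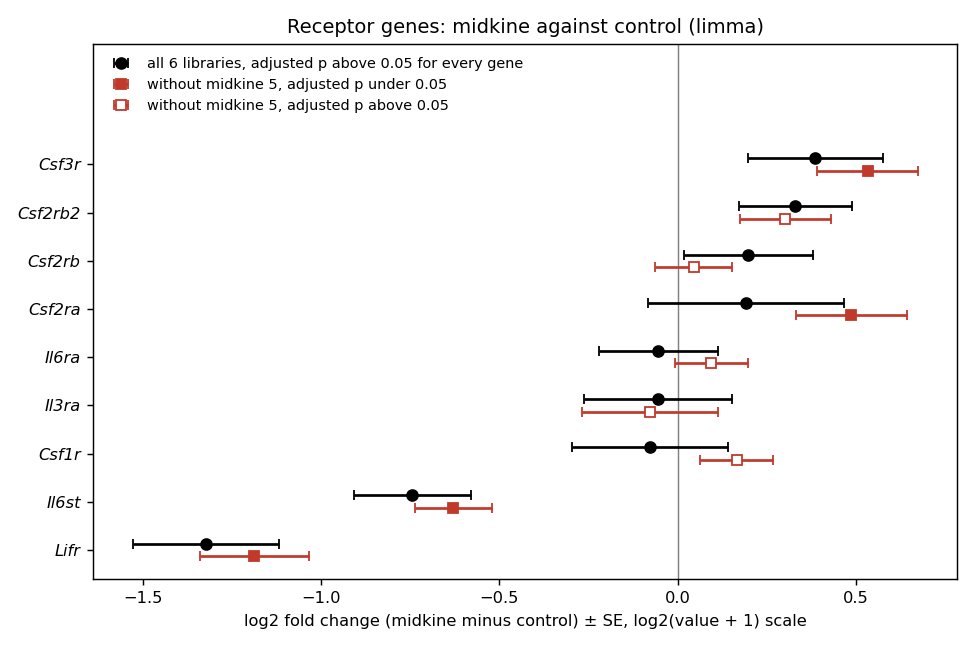
Log2 fold change of the 9 tested receptor genes, midkine minus control, ± SE (horizontal axis, log2(value + 1) scale), from all 6 libraries (black circles) and without midkine 5 (red squares, filled where the adjusted p was under 0.05). Lifr (−1.32) and Il6st (−0.74) lie to the left of 0 in both fits, while Csf1r and Il6ra change side.

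The genes nearest to each member over the 6 libraries were found by the root mean square difference of centred log2 values among 8651 other genes. Nearest to Lifr were Aff3 (0.165), at 600 ± 6.74 normalized counts in controls and 280 ± 80.8 with midkine, and Cd300c (0.169), a myeloid surface receptor, at 92.7 ± 2.40 and 32.0 ± 6.62. Nearest to Il6st were Pgs1 (0.0709), at 175 ± 25.5 and 97.8 ± 14.2, and Rab3ip (0.0711), at 80.5 ± 4.74 and 48.9 ± 5.69. Lifr was less closely matched by any gene than the other members were. Among the members themselves, Csf1r and Il6ra had the smallest difference (0.109), followed by Csf2rb and Csf2rb2 (0.146). For Csf3r the nearest were H2-Q4 (0.0254) and Ubl3 (0.0536), and for Csf1r Babam2 (0.0424) and Psenen (0.0457). Csf2rb was nearest to Cops3 (0.0246) and Il6ra to Mrpl48 (0.0243). These are descriptions of 6 libraries.

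The genes of the ligand list were mostly low or without a row in this table. The list also holds Flt3l, Kitl and Tslp, which are not ligands of the 10 members. Flt3l and Kitl are among the tested genes, so the counts and median below are not of these receptors' ligands alone. Of 18 genes in the list, 11 had a row and 8 were tested, of which 2 were higher and 0 lower at an unadjusted p under 0.05 (10.4% and 9.3% of all tested genes), and 0 passed after adjustment. Osm, which encodes oncostatin M, had 13.3, 22.5 and 8.88 normalized counts in controls and 35.8, 63.3 and 88.0 with midkine (log2 fold change 1.99 ± 0.421 SE, limma adjusted p = 0.0881). Csf1 had 87.2, 74.7 and 83.8 in controls and 183, 193 and 116 with midkine (0.96 ± 0.228, adjusted p = 0.0969). Neither overlapped between the groups, and both were named for the smallest p in the list. Osm was higher in the midkine libraries, where Lifr and Il6st were lower, and a relation between these differences was not tested. Without midkine 5 Osm and Csf1 passed as higher (limma adjusted p = 0.00319 for Osm and 6.28e-05 for Csf1). Ebi3, a subunit of IL-27, overlapped (422 ± 74.5 and 495 ± 48.6), Flt3l was at 61.0 ± 3.45 and 73.7 ± 13.3, and Il6, named for its role after its values were seen, was at 0 to 18.5 normalized counts per library. The median log2 fold change of the list was 0.22 over the 8 tested, but 0.015 without midkine 3 and 0.057 without control 2. In each of these 2 fits 9 genes passed the filter, so the set of genes also differed.

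Other cytokine receptors went both ways. Of 27 genes, 25 had a row and 23 were tested. At an unadjusted p under 0.05, 5 were higher and 3 lower, beside 10.4% and 9.3% of all tested genes, and 0 passed after adjustment. The list median was 0.05 (−0.04 to 0.07 when 1 library was left out), and without midkine 5 the count was 6 higher and 6 lower. Flt3, which binds the FLT3LG of these cultures, had 259, 249 and 245 normalized counts in controls and 149, 153 and 164 with midkine, without overlap (log2 fold change −0.69 ± 0.147 SE, limma adjusted p = 0.0881). Il12rb2, a chain of the IL-12 receptor that is related to gp130, was at 39.1 ± 1.30 and 16.8 ± 5.97 (adjusted p = 0.113). Il11ra1, which binds IL-11 and signals through gp130, was higher at 305 ± 33.8 and 505 ± 114 (0.138), in contrast to Lifr and Il6st. Il10rb, the shared chain of the IL-10 receptor family, had 417, 402 and 382 in controls and 623, 763 and 968 with midkine (0.95 ± 0.184, adjusted p = 0.0788). Without midkine 5, limma called 4 of these receptors higher and 3 lower after adjustment (9.86% and 8.53% of all genes), among them Il10rb and Il11ra1 higher and Flt3 and Il12rb2 lower.

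Next came the genes that act below the receptors. Of 24 JAK-STAT and receptor-proximal genes, all tested, 3 were higher and 2 lower at an unadjusted p under 0.05, shares near the 10.4% and 9.3% of all tested genes, with a median of 0.23 (0.15 without midkine 5). These counts were 1 to 7 higher and 0 to 4 lower when 1 library was left out. Pik3r5, a regulatory subunit of PI3-kinase gamma, had 156 ± 14.6 and 372 ± 142 normalized counts (log2 fold change 1.18 ± 0.274 SE, limma adjusted p = 0.0938). Tyrobp, the adaptor that works with Csf1r and other myeloid receptors, had 2861 ± 195 and 3813 ± 279, the adaptor Gab1 37.1 ± 2.03 and 56.3 ± 9.71, and the kinase Fyn 554 ± 65.6 and 376 ± 94.9. None of the 4 overlapped between the groups, where 15.5% of all tested genes were higher and 15.3% lower in this way. They were named for the smallest p in the list, so this follows largely from that choice. Stat3, the main STAT factor of gp130, had 915 ± 36.7 and 1210 ± 319 (adjusted p = 0.324), and Socs3, its feedback inhibitor, 45.1, 26.6 and 25.6 in controls and 38.7, 51.7 and 34.5 with midkine, with overlap (0.488). Both were named here for their role in the pathway and after their values were seen. Without midkine 5, 5 genes of the list passed as higher and 1 as lower, beside 9.86% and 8.53% of all genes.

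Of the feedback inhibitors and genes of receptor turnover, 4 of 21 tested were higher and 0 lower at an unadjusted p under 0.05, beside 10.4% and 9.3% of all tested genes, with a median of 0.38. The count of higher genes was 3 to 8 when 1 library was left out, with 8 without midkine 3 and 8 without midkine 5. Dusp1, a phosphatase of MAP kinases, had 121, 152 and 103 normalized counts in controls and 404, 657 and 575 with midkine (log2 fold change 2.10 ± 0.231 SE, limma adjusted p = 0.0523). Dusp6, a phosphatase of ERK, had 573 ± 76.2 and 933 ± 39.4, and the adaptor Dok2 192 ± 22.8 and 323 ± 77.9. Adam17, a protease that sheds Csf1r and Il6ra from the cell surface, had 1773, 1504 and 1808 in controls and 2022, 2394 and 2688 with midkine (0.48 ± 0.163, adjusted p = 0.181). All 4 lacked overlap, as did 15.5% of all tested genes in this direction, and all 4 passed as higher without midkine 5. They were named for the smallest p in the list, so both results follow largely from that choice. Without midkine 5 the list had 5 higher and 0 lower, beside 9.86% and 8.53% of all genes.

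The last list held transcription factors known to act on genes of these receptors. Of 19 tested, 7 were higher and 2 lower at an unadjusted p under 0.05, beside 10.4% and 9.3% of all tested genes, with a median of 0.35, and 0 passed after adjustment with all libraries. The count of higher genes was 4 without midkine 4 and 11 without midkine 5. Cebpa, a factor of granulocyte and monocyte precursors, had 478, 526 and 509 normalized counts in controls and 870, 916 and 2174 with midkine (log2 fold change 1.25 ± 0.326 SE, limma adjusted p = 0.118). Without midkine 5, which was highest, Cebpa rose by 0.82 (adjusted p = 5.60e-05). Cebpb had 413 ± 45.5 and 753 ± 145 (0.85 ± 0.186, adjusted p = 0.0881), and Egr2, a factor of macrophages, 26.7 ± 8.96 and 73.6 ± 33.4 (1.36 ± 0.397, 0.140). Klf4, a factor of monocytes and DCs, had 830 ± 77.7 and 517 ± 88.2 (−0.69 ± 0.175, 0.111). Without midkine 5, 10 of the 19 passed as higher and 2 as lower, beside 9.86% and 8.53% of all genes.

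**Figure D4:**
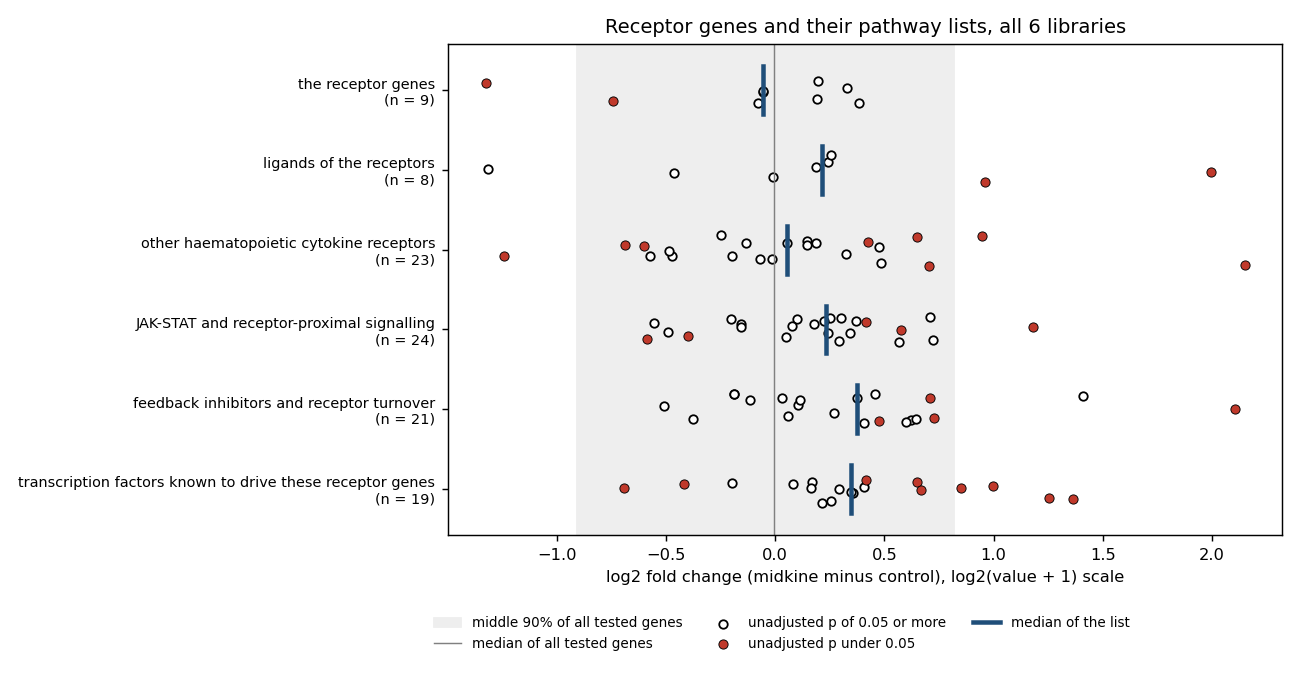
Log2 fold change, midkine minus control, of each tested gene (points, horizontal axis) in the receptor list and in 5 lists of its pathway, with list medians (blue) and the median (grey line) and middle 90% (grey band) of all tested genes. Filled points had an unadjusted p under 0.05, and Lifr and Il6st are the 2 filled points of the receptors, both to the left of 0.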

How the data were processed

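Transcript levels were measured with a 3′ mRNA-seq kit (QuantSeq FWD) on an Illumina HiSeq, per the labels' protocols. For the steps before deposit, the submitters' processing notes list HTSeq, DESeq2, TopHat2 2.0.10, Bowtie 1.0.0, FastQC 0.11.0 and SAMtools 0.1.19 and the build GRCm38 (mm10). Not given in the sources used here are the annotation, the strand setting and the filter on genes. The deposited values are a signal per gene: counts divided by 1 size factor per library by the authors. Dividing by the smallest value above 0 gave whole reads for 100% of values (tolerance 0.01 reads).

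limma 3.58.1 (R 4.3.3, eBayes with trend) was fitted to log2(normalized count + 1) over all 13543 genes with a mean of at least 5, with two-sided tests. A gene was called at a Benjamini-Hochberg adjusted p under 0.05. Fold changes on this scale understate those of low genes. Whole reads were tested with edgeR 4.0.16 (TMM, quasi-likelihood) and with DESeq2 1.42.0 (3894 genes have no adjusted p from it). Ratios were compared by exact permutation. Other settings changed the pseudocount, filter, scaling, variance moderation and libraries. The tests were tried on simulated data.

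Named were all members, up to 4 genes per pathway list with the smallest p and a mean of at least 20, and for each member the 2 nearest genes, of which some are printed. Genes outside this rule are marked as such, or are markers or a gene that overlaps a member. The members and lists were chosen with earlier results of these data known.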

Additional observations from a re-analysis of the deposited data

How the results depend on the processing

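No paired analysis was possible because the groups share only replicate number 4. Of 16 alternatives, 3 changed a count of called members. Without midkine 5, limma called 2 higher and 2 lower, and leaving out each library in turn gave 0 to 2 in each direction. edgeR without midkine 5, an alternative chosen after seeing the data, called 2 and 2. DESeq2 called 0 higher and 2 lower. Lifr and Il6st kept their direction in all 16, with log2 fold changes of −1.48 to −1.18 and −0.83 to −0.63. Csf2rb, Csf2rb2 and Csf3r did too. Some members without a call changed sign: Csf1r to 0.17 (limma and edgeR without midkine 5), Il6ra to 0.094 and 0.10 in the same fits, Csf2ra to −0.038 without midkine 3, and Il3ra to 0.095 without control 2 and 0.027 without midkine 4. Their ranges with 1 library left out were −0.22 to 0.17 (Csf1r), −0.14 to 0.094 (Il6ra), −0.038 to 0.49 (Csf2ra) and −0.18 to 0.095 (Il3ra). Of the ratios, that of Csf2ra to Csf2rb ranged from −0.31 to 0.44 when 1 library was left out, around −0.01 on the log2 scale, and the other 4 kept their direction. The cause of these changes was not tested. The reads of Osmr (0 to 5) are too few to show a difference.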
